A study of Homo sapiens with 8 samples.

Results

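mRNA levels were compared between LN229-TAZ(4SA) glioblastoma cells labelled as TrxR1 knockout and their control cells, both kept in regular medium. LN229 is an established human glioblastoma line, and all cells of the series carry the TAZ(4SA) construct that the labels name, the knockout and the control cells alike. TrxR1 knockout (KO) cells were set against control cells labelled EV, both grown in DMEM with 10% fetal bovine serum and 1% antibiotic-antimycotic. The members were chosen by label: the 2 KO and the 2 EV libraries of regular culture, 4 of the 8 libraries of the series. The other 4 are the same cells in glucose-deprived medium, named by a column suffix (GlcN) that was read as glucose-deprived. Of the 13730 genes in the deposited table, 13057 were tested, those whose log2 CPM averaged 0 or more over the 8 libraries. CPM is a gene's read count scaled to the size of its library, with no correction for gene length. The labels do not say how many clones stand behind the KO cells, and they do not describe the 2 libraries of a group as separate cultures, so every p-value rests on the spread of these libraries, and that spread may be technical. The letters a and b, given here to the 2 libraries of each group, are only names.

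TrxR1, encoded by TXNRD1, is the cytosolic selenoprotein that uses NADPH to keep thioredoxin reduced. Reduced thioredoxin in turn serves peroxiredoxins, ribonucleotide reductase and many protein thiols. The glutathione system runs in parallel with it and draws on the same NADPH. The transcription factor NRF2, encoded by NFE2L2, is held at a low level by KEAP1, a cysteine-rich adaptor that passes it to a CUL3 ubiquitin ligase, and when those cysteines are modified NRF2 accumulates. NRF2 pairs with small MAF proteins on antioxidant response elements, and among its known targets are genes of cystine uptake, glutathione synthesis, NADPH supply, quinone reduction, heme breakdown and iron storage, as well as TXNRD1 itself.

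The 4 libraries held 75153223 to 100715056 reads in genes of the table, summed from whole reads recovered from the values, and 100% of values were whole reads within a tolerance of 0.05 read. Of the markers expected in these cells, NES and VIM were at 787 to 860 and 2897 to 3019 CPM, and CD44 was at 1098 to 1185 CPM. None of these was called. SOX2 was at 54.3 and 56 CPM in EV and 39.5 and 38 in KO, and was called lower. S100B, at 18.3 and 18.7 CPM in EV and 13.2 and 13.7 in KO, was called lower too. SOX9 (log2 fold change -0.17) and OLIG2 (0.06) were below 10 CPM in all 4 libraries and were not called. GFAP was below the filter, as were CD14 and RBFOX3, while PROM1, ALDH1L1 and the endothelial markers were not analysed here. Of the markers of other cell types (leukocyte, endothelial, epithelial, fibroblast and neuron), KRT8 (15.1 and 15.6 CPM in EV, 12.2 and 11.4 in KO) and COL1A1 (26.9 and 27.6, against 22.2 and 21.1) were called lower, and the other 6 tested were not called. The summed level of the epithelial list was 197 and 200 CPM in EV and 179 and 183 in KO, with 1 of 2 tested members called, and that of the fibroblast and mural list 34.2 and 34.6 against 30.3 and 28.6, with 1 of 3 called. Over all genes tested 3.38% were called lower, and so few members do not describe a cell type. In the fibroblast and mural list 2 of the 3 values were positive, with a median of 0.11. The part of such markers in other results was not tested. KRT8 was not called without EV library a or b (limma adjusted p = 0.0537 and 0.083), nor COL1A1 without EV library b (0.0572). The labels name 1 cell line for all libraries. In bulk RNA, fewer cells with a transcript and less of it per cell cannot be told apart.

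The largest called differences between KO and EV cells were rises. Of 13057 genes, 946 were called by limma, a linear model fitted across all genes, at a Benjamini-Hochberg adjusted p under 0.05, that is 7.25%. Of these, 505 were higher in KO cells (3.87%) and 441 lower (3.38%). With libraries scaled by the plain sum of reads, 40.4% of calls were higher, against 53.4% here. Most differences were small: the median log2 fold change was 0.22 among the called rises and -0.26 among the called falls, and 550 of the 946 differed by less than 1.2-fold. By contrast 17 genes were called higher by 1 or more on the log2 scale, and 0 were called lower by that much. When the test asked for a difference beyond 1.2-fold, 49 genes passed, 41 of them higher and 8 lower. The median over all genes tested was -0.0033. The count depended on the libraries: 168 genes were called without EV library a, 198 without EV library b and 517 without KO library a. Leaving out EV library a or b of the deprived medium, which share in the estimate of the spread, gave 581 and 573.

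**Figure D1:**
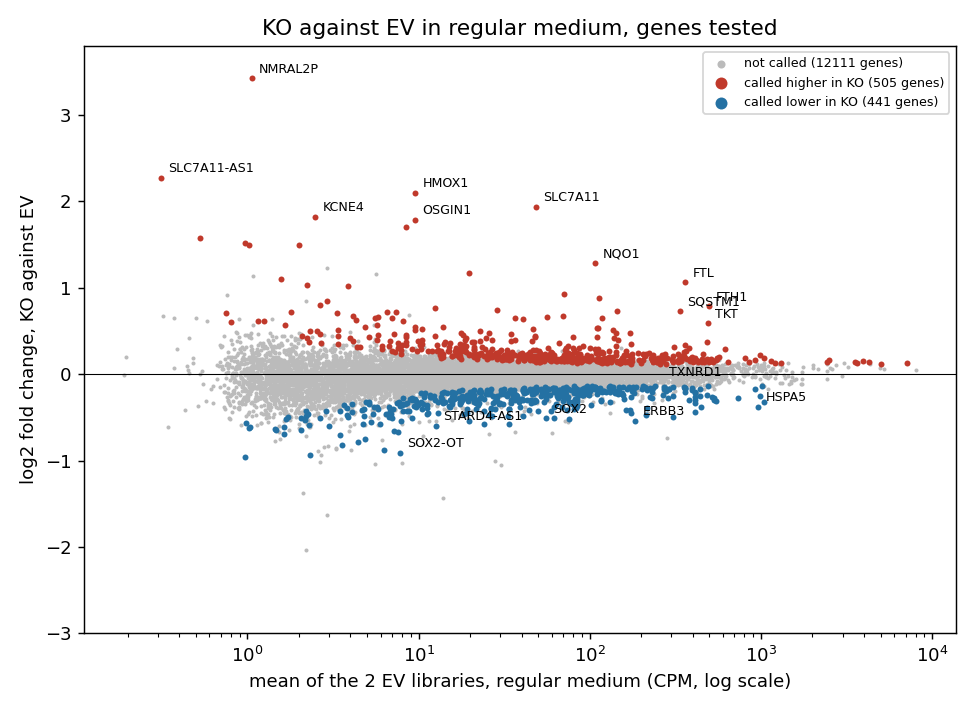
Log2 fold change of KO against EV in regular medium (vertical axis) against the mean CPM of the 2 EV libraries (horizontal axis, log scale), 1 point per gene. Red points are the 505 genes called higher, blue points the 441 called lower, grey points the genes not called; 1 gene that was not called lies outside the axis. The rises reach 3.43 while no called fall reaches -1.

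TXNRD1 (Entrez Gene ID 7296, chr12:104215779-104350307, GRCh38) was at 263 and 261 CPM in the EV libraries and at 245 and 249 in the KO libraries. The groups did not overlap, as in 55.4% of genes tested, but the TXNRD1 log2 fold change of -0.08 ± 0.0357 SE was not called (limma adjusted p = 0.192). A gene-level value checks a knockout only where the edit lowers the mRNA, and the place of the edit is not given in the labels, so these values do not check the loss of the protein. In glucose-deprived medium the TXNRD1 difference was -0.47 (adjusted p = 2e-05). Of the 10 tested genes nearest to TXNRD1, 5 on each side, TDG, a DNA glycosylase (-0.21, adjusted p = 0.0326), and WASHC4, a subunit of the endosomal WASH complex (-0.25, adjusted p = 0.0104), were called lower. The other 8 were not called. Over all genes tested 3.38% were called lower, and on chromosome 12 as a whole 50 of 695. A link of these falls to the edit was not tested. When EV library a was left out, the adjusted p was 0.286 for TDG and 0.123 for WASHC4, and without EV library b 0.134 and 0.0876; TDG was also not called without KO library a (0.129) or without either EV library of the deprived medium (0.0659 and 0.0658).

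Of the 28 tested members of the thioredoxin system, SRXN1, TXN and PRDX1 were called higher and 24 were not called. Those 24 held the mitochondrial members named here and cytosolic ones as well, TXNRD1 among them. SRXN1, sulfiredoxin, which repairs overoxidised peroxiredoxins, was at 114 CPM in both EV libraries and at 210 and 211 in the KO libraries (log2 fold change 0.89 ± 0.0335 SE, limma adjusted p = 1.22e-07). TXN, the thioredoxin that TrxR1 reduces, was at 148 and 143 CPM in EV and 187 and 194 in KO (0.39, adjusted p = 0.000181). PRDX1, a cytosolic peroxiredoxin, was at 363 and 356 CPM in EV and 446 and 465 in KO (0.34, adjusted p = 0.00022). All 3 had both KO libraries above both EV libraries. The groups were apart in all 946 called genes and in 55.4% of genes tested, so this adds nothing to the call. The mitochondrial counterparts gave log2 fold changes of 0.10 for TXNRD2 (95% interval -0.01 to 0.20), -0.01 for TXN2 (-0.09 to 0.08) and -0.04 for PRDX3 (-0.13 to 0.06), none of them called. TXNIP, which binds and inhibits thioredoxin, was at -0.12 (-0.24 to 0.01), also not called. The lists here and below were chosen with earlier results of these data known, so shares set beside them describe and do not test. Of the 28 tested members of the thioredoxin system, 3 were called higher and 1 lower, against 3.87% and 3.38% of all genes tested. Their median was 0.03. The lower one was RRM2B, a ribonucleotide reductase subunit and p53 target, at 85.8 and 83.5 CPM in EV and 64.8 and 70.3 in KO (-0.33, adjusted p = 0.00369), which was not called without EV library a (0.0604). RRM1 and RRM2, the other subunits, were not called (0.06 and 0.05).

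The mRNA of NRF2 itself was not called, while mRNAs of proteins that act on it rose. NFE2L2 was at 106 and 109 CPM in EV and 105 and 107 in KO (-0.02, 95% interval -0.10 to 0.06, limma adjusted p = 0.754). Its competitor BACH1 (0.02, -0.09 to 0.13), its relative NFE2L1 (0.01, -0.07 to 0.08) and the ligase scaffold CUL3 (0.01, -0.09 to 0.12) were not called either. SQSTM1, the autophagy receptor p62 that binds KEAP1, rose from 338 CPM in both EV libraries to 573 and 548 (0.73, adjusted p = 5.4e-07). TRIM16, a TRIM-family protein known to stabilise NRF2, rose from 19.2 and 20.3 to 44.9 and 44.2 CPM (1.17, adjusted p = 6.62e-08). MAFG, the small MAF partner and itself a known NRF2 target, rose from 129 and 128 to 160 and 151 CPM (0.27, adjusted p = 0.00215). KEAP1 was at 71.2 and 71.3 CPM in EV and 88 and 84.7 in KO (0.28, adjusted p = 0.00666), with adjusted p = 0.0806 without EV library a and 0.0735 without EV library b. Of 22 tested regulators 4 were called higher and 0 lower, against 3.87% and 3.38% of all genes tested. Their median was 0.03, and 1 was called lower without KO library b.

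The largest rises were led by genes known as NRF2 targets. NMRAL2P, a transcribed pseudogene related to NMRAL1 (Entrez Gene ID 344887, chr3:185959943-185980877), was at 0.931 and 1.18 CPM in EV and 11 and 12.1 in KO (log2 fold change 3.43 ± 0.103 SE, adjusted p = 2.73e-08). HMOX1, heme oxygenase (Entrez Gene ID 3162, chr22:35381096-35394207), was at 9.31 and 9.8 CPM in EV and 42.3 and 39.7 in KO (2.10 ± 0.049 SE, adjusted p = 4.02e-09). SLC7A11, which brings cystine into the cell in exchange for glutamate (Entrez Gene ID 23657, chr4:138164097-138242349), was at 48.2 and 49.3 CPM in EV and 180 and 194 in KO (1.94 ± 0.0412 SE, adjusted p = 3.05e-09). In each the lowest KO library was several times the highest EV library. OSGIN1, an oxidative stress-induced growth inhibitor, rose from 9.37 and 9.66 to 33.3 and 32.6 CPM (1.79). NQO1, the quinone reductase (Entrez Gene ID 1728, chr16:69709401-69726560), rose from 108 in both EV libraries to 261 and 265 CPM (1.29, adjusted p = 4.2e-09). TRIM16L, a pseudogene of TRIM16, rose from 8.03 and 8.76 to 27.4 and 27.3 CPM (1.70). Reads of TRIM16L and TRIM16, or of NMRAL2P and NMRAL1, may be split between near-identical copies, since the counting tool is not given in the sources used here.

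Further large rises, with a mean of at least 10 CPM in KO, were those of FTL, GCLM, FTH1 and ME1, described with their pathways, and of IGF2BP3 and MUC5B. IGF2BP3, an oncofetal RNA-binding protein, rose from 27.2 and 30 to 45.3 and 50.5 CPM (0.74, limma adjusted p = 0.000103). MUC5B, a secreted mucin, rose from 6.93 and 6.11 to 11.4 and 10.1 CPM (0.72, adjusted p = 0.000796). With a mean below 10 CPM, 9 genes rose by 1 or more. SLC7A11-AS1, a long non-coding RNA whose annotated span overlaps SLC7A11, went from 0.315 and 0.313 to 1.82 and 1.41 CPM (2.27, adjusted p = 1.6e-05). The libraries do not mark strand, so reads in the overlap cannot be assigned to either gene. KCNE4, a potassium channel subunit, rose from 2.7 and 2.28 to 8.72 and 8.95 CPM (1.82). AKR1C1, an aldo-keto reductase with close paralogs, rose from 2.27 and 1.76 to 5.29 and 6.07 CPM (1.49), and PIR, the iron-binding protein pirin, from 2.18 and 2.31 to 4.63 and 4.62 (1.04). TNIP3 (1.57), COL24A1 (1.52), SLC12A8 (1.49) and the long non-coding LUCAT1 (1.10) were likewise called, all at adjusted p of 0.00074 or below. PANX2, a pannexin channel, was called at 1.02 (adjusted p = 0.014) but not without EV library a (0.0775), EV library b (0.107) or KO library a (0.0817).

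**Figure D2:**
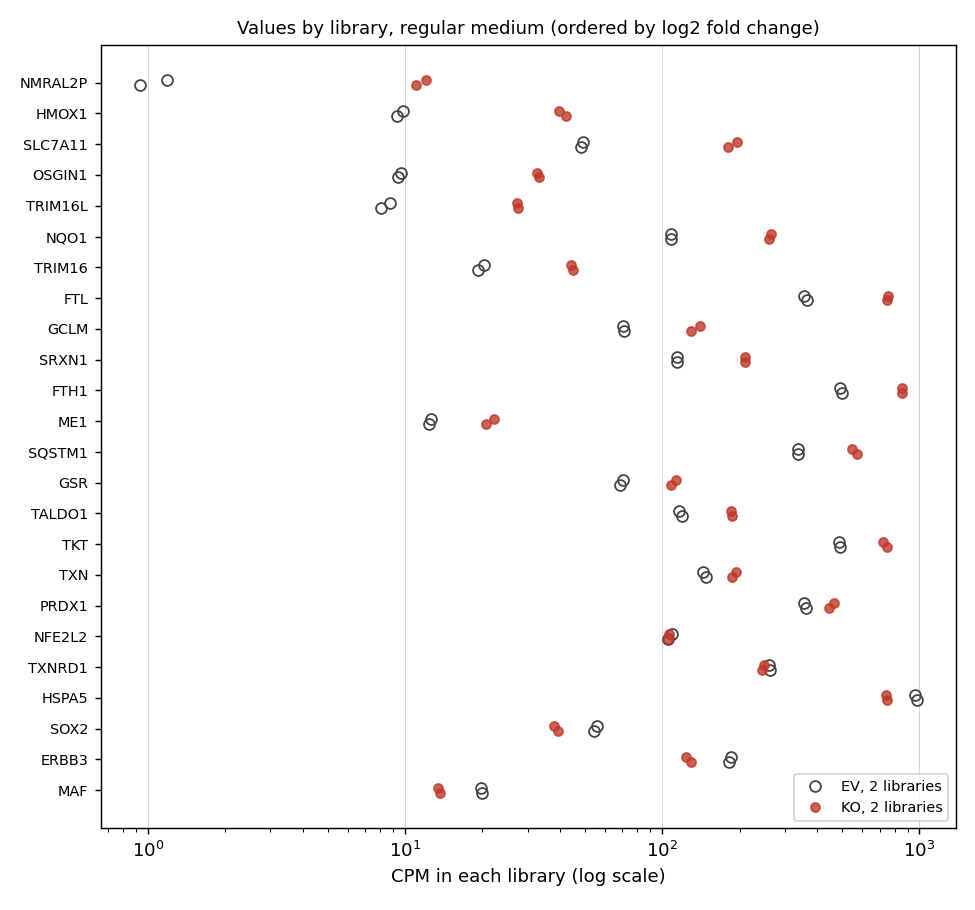
CPM of 24 genes (rows, ordered by log2 fold change) in each of the 4 libraries of regular medium, on a log scale. Open circles are the 2 EV libraries and filled red circles the 2 KO libraries. Pairs of libraries lie close together beside the KO against EV distance for rises such as SLC7A11 and NQO1, and the 4 circles of NFE2L2 nearly coincide.

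Antioxidant response elements were looked for in the promoters of the genes that rose, because this is the sequence NRF2 binds. The core TGACNNNGC was searched on both strands in the 250 bases before each annotated start, in the promoter windows of RefSeq (GRCh38.p14). A window was found for 10461 of the tested genes. The sites below are printed with 10 bases on each side and the core in capitals, in the strand that reads TGAC. GCLM and TXNRD1 are shown for the glutathione and the thioredoxin system, EPHX1 for detoxification, and ME1 for NADPH supply. They are a selection. The core also lay before PGD and before genes outside these systems, among them HSPA6, LUCAT1 and PPP1R15A.
GCLM, chr1:93909446-93909474, plus strand: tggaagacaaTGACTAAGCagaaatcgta
ME1, chr6:83431170-83431198, minus strand: tctcctgccaTGACTCAGCgcttctcgca
EPHX1, chr1:225825266-225825294, plus strand: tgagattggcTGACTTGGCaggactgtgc
TXNRD1, chr12:104215670-104215698, plus strand: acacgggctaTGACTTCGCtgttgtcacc
TXNRD1, chr12:104286920-104286948, minus strand: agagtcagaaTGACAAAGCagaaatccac
TXNRD1 carried a core before both starts that the table lists for it. Among genes called higher by 0.5 or more, 9 of 67 windows held the core (13.4%), against 11.7% of windows of all tested genes, 10.1% for genes called lower and 10.9% of all 35116 windows of the table. The core followed directly by an A, which is a part of the matches of the core, was in 5 of those 67 windows (7.46%), against 2.40% of windows of tested genes and 1.70% for genes called lower. TGACTCAGC, a special case of the core, was in 3 of the 67 windows (4.48%), against 0.398% and 0.511%. Those 3 windows lay before ME1, HSPA6 and LUCAT1. Only the core was planned, and the narrower forms, held by 5 and 3 of the 67 windows, were searched besides. Among genes called higher by 1 or more, 1 of 13 windows held the core (7.69%). A match is a description of letters and not a shown binding site. Of the rises of 0.5 or more, 15 had no window, among them HMOX1, SLC7A11, FTH1, NMRAL2P and TRIM16L.

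The mRNAs of cystine uptake and of the rate-limiting step of glutathione synthesis rose. Of the glutathione peroxidases GPX3 was called higher, and GPX1 and GPX4 were not called. Besides SLC7A11, its heavy chain SLC3A2 was at 382 and 373 CPM in EV and 481 and 447 in KO (0.30, limma adjusted p = 0.00811). SLC3A2 was not called without EV library a (0.062), EV library b (0.0875) or KO library a (0.0501). GCLM, the modifier subunit of glutamate-cysteine ligase, rose from 71 and 70.3 to 129 and 140 CPM (0.93, adjusted p = 5.4e-07), and GCLC, the catalytic subunit, from 33.2 and 35.8 to 43.9 and 46.1 (0.38, adjusted p = 0.00122). GSS, which adds the glycine, was at 72.6 and 72.3 CPM in EV and 75 and 71.1 in KO (0.01, 95% interval -0.08 to 0.11). GSR, which returns oxidised glutathione to the reduced form with NADPH, rose from 68.3 and 70.5 to 108 and 113 CPM (0.67, adjusted p = 3.64e-06). Both KO libraries lay above both EV libraries in all of these but GSS, as they did in every called rise.

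Enzymes that use or break down glutathione split. MGST1, a microsomal transferase, rose from 8.01 and 8.1 to 12.2 and 12.5 CPM (0.61), GSTM3 from 14.2 and 13.5 to 19.6 and 20.8 (0.54), and CHAC1, which degrades glutathione, from 10.8 and 10.2 to 15.5 and 14.8 (0.53). GSTM4 (0.27) and GSTP1 (0.21) were called as well, and GPX3, the secreted peroxidase, rose by 0.34 (limma adjusted p = 0.0168). The adjusted p without EV library a was 0.144 for GSTM4, 0.098 for GSTP1 and 0.162 for GPX3, and without EV library b 0.0983, 0.0588 and 0.09; GPX3 was also not called without KO library a (0.0846). GPX1 was at -0.10 ± 0.0446 SE, GPX4 at -0.04 (95% interval -0.17 to 0.09) and GLO1 at 0.02 (-0.07 to 0.11), none called. In all 11 of 33 tested glutathione genes were called higher and 0 lower, against 3.87% and 3.38% of all genes tested. Their median was 0.01. The rises numbered 7 without EV library a and 7 without EV library b, and 1 fall was called without KO library b.

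The mRNAs of the pentose phosphate pathway, which yields NADPH and recycles carbon, rose in part. PGD, which yields NADPH, rose from 113 and 111 to 163 and 160 CPM (0.53, limma adjusted p = 1.6e-05). PGLS, the lactonase of the pathway, was at 31.6 and 29.9 CPM in EV and 29.6 and 23.4 in KO (-0.23, 95% interval -0.46 to 0.01) and was not called. On the non-oxidative side TKT, transketolase, rose from 490 and 489 to 751 and 721 CPM (0.59, adjusted p = 2.71e-06) and TALDO1, transaldolase, from 120 and 117 to 186 and 185 (0.65, adjusted p = 1.04e-06), whereas RPIA (-0.02, -0.12 to 0.08) and RPE (-0.06, -0.16 to 0.04) were not called. ME1, the cytosolic malic enzyme that also yields NADPH, rose from 12.4 and 12.6 to 20.6 and 22.2 CPM (0.77, adjusted p = 4.99e-05). Its mitochondrial relative ME2 was at 0.00 (-0.08 to 0.08). IDH1, the cytosolic isocitrate dehydrogenase, went the other way, from 48.9 and 48.5 to 40.9 and 44.5 CPM (-0.19, adjusted p = 0.0353), and was not called without EV library a (0.232), EV library b (0.185), KO library a (0.129) or either EV library of the deprived medium (0.0638 and 0.0641). Of 22 tested genes of NADPH supply, 6 were called higher and 1 lower, against 3.87% and 3.38% of all genes tested. Their median was -0.01, and 2 were called lower without either KO library of the deprived medium. MTHFD2, a mitochondrial folate enzyme, was called higher as well (0.17, adjusted p = 0.0326), but it was not called without EV library a (0.20), EV library b (0.207), KO library b (0.111) or either EV library of the deprived medium (0.0586 and 0.0589).

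**Figure D3:**
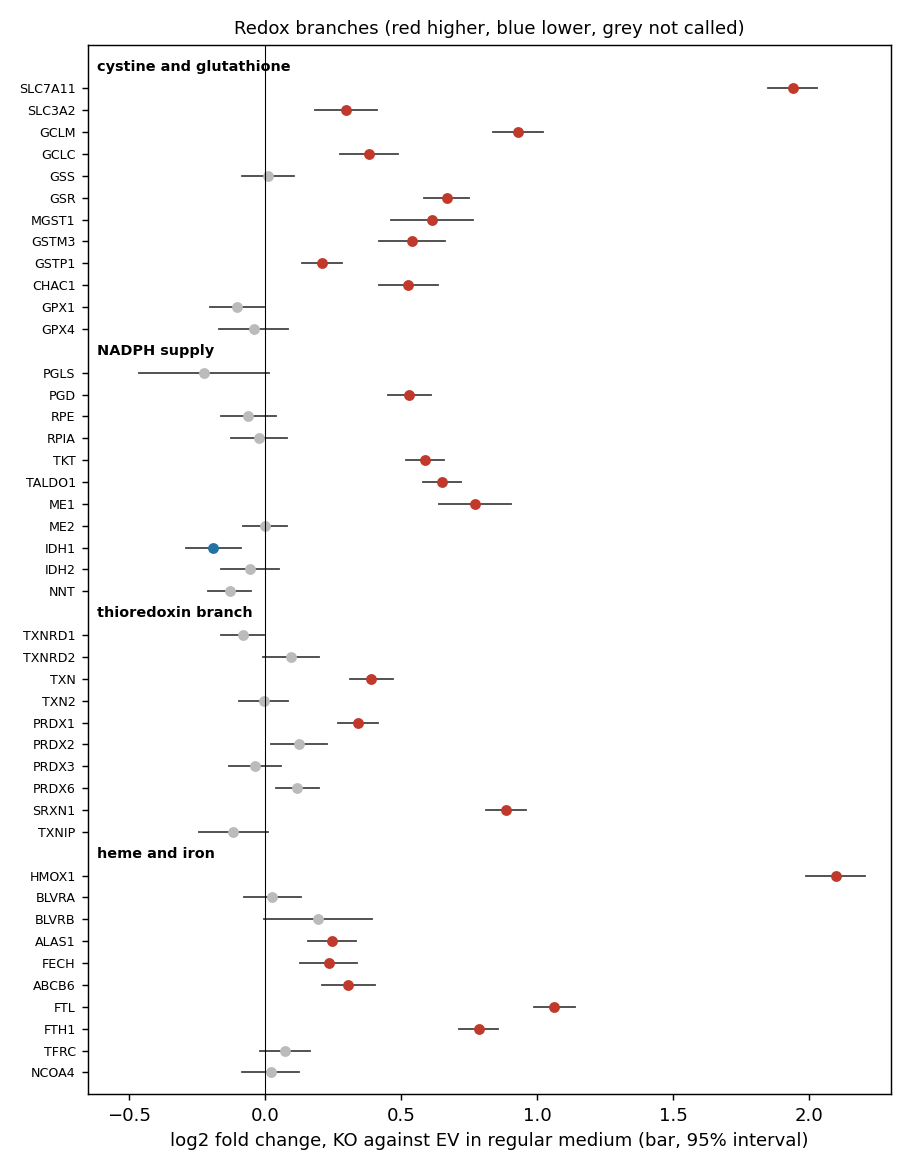
Log2 fold change of KO against EV in regular medium (horizontal axis) for members of the glutathione, NADPH, thioredoxin and iron branches, with limma's 95% interval as a bar. Red points were called higher, blue lower, grey not called. SLC7A11 and HMOX1 stand farthest right, at 1.94 and 2.10, and neighbouring steps such as PGLS, GSS and TXNRD1 lie at or below 0.01.

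The ferritin chains, which store iron, and HMOX1, which breaks down heme, had the largest rises among genes of heme and iron. FTL, ferritin light chain, was at 366 and 354 CPM in EV and 749 and 757 in KO (1.06 ± 0.0342 SE, limma adjusted p = 4.23e-08). FTH1, ferritin heavy chain, was at 502 and 489 CPM in EV and 853 and 855 in KO (0.79 ± 0.032 SE, adjusted p = 2.38e-07). Both ferritin chains have many processed pseudogenes, which may share reads with them. ABCB6, a porphyrin transporter, rose from 56.7 in both EV libraries to 70 and 70.1 CPM (0.31, adjusted p = 0.00289). ALAS1, the first enzyme of heme synthesis (0.25, adjusted p = 0.00568), FECH, which inserts the iron (0.23, adjusted p = 0.0168), and SLC48A1, a heme transporter (0.37, adjusted p = 0.013), were called too. Their adjusted p without EV library a were 0.0993, 0.0838 and 0.119, and without EV library b 0.0524, 0.165 and 0.0876; FECH was also not called without KO library b (0.0556), nor SLC48A1 without KO library a (0.0673). TFRC, the transferrin receptor for iron uptake, was at 535 and 526 CPM in EV and 541 and 575 in KO (0.07, 95% interval -0.02 to 0.16), and NCOA4, the receptor for ferritin breakdown, at 0.02 (-0.08 to 0.12), neither called. BLVRA and BLVRB, which reduce the biliverdin made by HMOX1, gave 0.03 and 0.19 and were not called. In all 9 of 29 tested genes of heme and iron were called higher and 1 lower, against 3.87% and 3.38% of all genes tested. Their median was 0.06, and 4 rises were called without EV library a and 4 without EV library b. The lower one was FBXL5, the iron-sensing adaptor that degrades IREB2 protein (-0.17, adjusted p = 0.0446), which was called neither without EV library a (0.284) nor without EV library b (0.215), KO library a (0.159) or either EV library of the deprived medium (0.0804 and 0.0809).

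The mRNAs of carbonyl and quinone detoxification rose in part. Apart from OSGIN1, NQO1 and AKR1C1, EPHX1, the microsomal epoxide hydrolase, rose from 41.6 and 40 to 65.3 and 62 CPM (0.64, limma adjusted p = 1.14e-05). AKR1C3 rose from 2.9 and 2.39 to 4.63 and 4.56 CPM (0.80, adjusted p = 0.00074), and AKR1B1, aldose reductase, from 143 and 142 to 181 and 176 (0.33, adjusted p = 0.0005). AKR1C1 and AKR1C3 are paralogs of 1 family, so reads may be split among its members. In total 11 of 32 tested members were called higher and 0 lower, against 3.87% and 3.38% of all genes tested. Their median was 0.10. Without EV library a 6 were called higher.

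Among genes that guard membranes against peroxidised lipids, AIFM2, the ubiquinone reductase FSP1, rose from 34.4 and 35 to 49 and 46.8 CPM (0.47, limma adjusted p = 0.000181). ACSL3, which activates monounsaturated fatty acids, fell from 228 and 221 to 184 and 189 CPM (-0.27, adjusted p = 0.00186). SAT1, a polyamine acetyltransferase, was at 37.2 and 38.5 CPM in EV and 30.9 and 32.3 in KO (-0.26, adjusted p = 0.0052), and was not called without EV library b (0.0843). GCH1 and CYB5R1 were the other called rises and SCD the other called fall. Of 20 tested members 3 were called higher and 3 lower, against 3.87% and 3.38% of all genes tested, a median of -0.02. The rises numbered 1 without either EV library, either KO library or either EV library of the deprived medium, and the falls 1 without EV library b. In the selenoprotein list, LRP8, a receptor for selenoprotein P, rose from 110 and 112 to 152 and 147 CPM (0.43, adjusted p = 0.000103). LRP8 and GPX3 were the 2 called rises among 29 tested genes of selenoproteins and their synthesis, against 3.87% of all genes tested. Called lower were 0, against 3.38%, and the median was -0.04. The rises numbered 1 without EV library a, EV library b or KO library a, while 2 falls were called without either KO library of the deprived medium. The selenophosphate synthetase SEPHS2 was at -0.05 (95% interval -0.13 to 0.04) and the elongation factor EEFSEC at 0.07 (-0.04 to 0.19), neither called.

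Some mRNAs of the stress response that acts through translation were called higher, while translation itself was not measured. ATF4, the transcription factor of this response, was at 354 and 361 CPM in EV and 430 and 426 in KO (0.26, limma adjusted p = 0.00153). PPP1R15A, the phosphatase subunit that reverses eIF2α phosphorylation, rose from 112 and 109 to 163 and 157 CPM (0.54, adjusted p = 3.17e-05). STC2, a secreted glycoprotein, rose from 169 and 173 to 236 and 241 CPM (0.48, adjusted p = 1.6e-05), and ATF3 from 17.4 and 17.3 to 21.1 and 21.4 (0.29, adjusted p = 0.00215). SLC7A11, SLC3A2 and CHAC1 belong to this list as well as to glutathione. The classical targets ASNS (0.07, 95% interval -0.03 to 0.16) and DDIT3 (0.13, 0.04 to 0.22) were not called. The called falls were DDIT4 and SLC1A4. Of 36 tested genes of the ATF4 list, which holds ATF4 itself, 15 were called higher and 2 lower. Over all genes tested 3.87% were called higher and 3.38% lower. The median of the list was 0.12. The rises numbered 6 without EV library a and 6 without EV library b, and the falls 0 without EV library a and 1 without EV library b.

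Of 32 tested chaperones and folding factors of the endoplasmic reticulum 11 were called lower, against 3.38% of all genes tested. The list was chosen with earlier results of these data known, so this share is a description and no test. HSPA5 (BiP), the central chaperone of that compartment, was at 975 and 958 CPM in EV and 750 and 741 in KO (-0.38 ± 0.0394 SE, limma adjusted p = 0.000417). PDIA4, a disulfide isomerase, was at 417 and 404 CPM in EV and 338 and 329 in KO (-0.30, adjusted p = 0.000771), and MANF, a secreted stress-response factor, at 79.8 and 77.6 against 64.8 and 61.3 (-0.32, adjusted p = 0.00074). CRELD1 fell from 15.7 and 15.9 to 13 and 12.2 CPM (-0.33, adjusted p = 0.00226). HSP90B1 (-0.32, adjusted p = 0.00441) and CALR (-0.25, adjusted p = 0.00215) were called, but not without EV library a (0.062 and 0.0548). PDIA3 (-0.14, 95% interval -0.24 to -0.04) and PDIA6 (-0.13, -0.21 to -0.05) were not called (0.0823 and 0.0508), but both were without KO library b (0.0303 and 0.0498) and without either KO library of the deprived medium (0.04 and 0.0236 without b, 0.0407 and 0.0241 without a). In the list 1 gene was called higher and 20 were not called, 3 had a positive value, and the median was -0.13. The falls numbered 4 without EV library a and without EV library b 7, and the single rise, of ERN1, a sensor of unfolded proteins, was not called without EV library a, EV library b or KO library a.

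Some genes of cytosolic protein care were called higher and, in the 3 lists counted here, 0 were called lower. Over all genes tested 3.87% were called higher and 3.38% lower. HSPA6, an inducible HSP70 form, rose from 2.96 and 2.88 to 5.53 and 5.03 CPM (0.85, limma adjusted p = 0.00017). FKBP4, an HSP90 co-chaperone, was at 208 and 213 CPM in EV and 245 and 242 in KO (0.21, adjusted p = 0.00505), and was not called without EV library a (0.108). Of 25 cytosolic heat shock genes 6 were called higher and 0 lower, median 0.08; the rises numbered 1 without EV library a, 2 without EV library b, 3 without KO library b, and 2 without either EV library of the deprived medium, with 1 fall without either KO library of that medium. In autophagy and lysosome 7 of 49 were called higher and 0 lower, median 0.06, with 4 called without EV library a and 4 without EV library b. Beside SQSTM1, GABARAPL1, a membrane tag of autophagosomes, rose from 5.54 and 5.95 to 8.31 and 8.69 CPM (0.56, adjusted p = 0.000796), GLA, a lysosomal galactosidase, from 48.2 and 47.7 to 63.3 and 65.8 (0.43, adjusted p = 0.000191), and TFE3, a lysosomal transcription factor, from 99.8 and 101 to 127 and 120 (0.30, adjusted p = 0.00139). Proteasome genes had a positive value in 37 of 40, median 0.07, but 3 were called higher (PSMD11, PSMG1 and PSMC5) and 0 lower. The rises numbered 0 without EV library a or b, 1 without either KO library or either EV library of the deprived medium, and 8 without either KO library of the deprived medium.

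Of 76 cytosolic ribosomal protein genes 23 were called higher and 0 lower, against 3.87% and 3.38% of all genes tested. These rises were at most 0.23. The median was 0.12, and 70 had a positive value. That count was 0 without EV library a or b, 13 without KO library a, 15 without KO library b, 14 without either EV library of the deprived medium and 42 without either KO library of that medium. RPL38, the member with the smallest adjusted p, was at 265 in both EV libraries and at 313 and 307 CPM in KO (0.23, limma adjusted p = 0.00482; 0.0737 without EV library a and 0.0704 without EV library b). In the mitochondrial respiratory chain 0 of 46 genes were called either way, with a median of 0.03; without either KO library of the deprived medium 2 were called higher and 2 lower, and without KO library b 1 was called higher. Glycolysis and glucose uptake had 6 of 27 called higher and 0 lower, a median of 0.07, and no called member beyond 0.22; the count was 0 without EV library a or b, 2 without KO library a and 3 without either EV library of the deprived medium. PFKP, a phosphofructokinase, was at 354 in both EV libraries and 418 and 404 CPM in KO (0.22, adjusted p = 0.0068; 0.0923 and 0.0826 without EV library a and b).

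Of 30 tested genes of glial and stem identity 12 were called lower, against 3.38% of all genes tested. Earlier results of these data were known when the list was chosen, so this share describes the list and does not test it. SOX2, a transcription factor of neural stem cells, was at 54.3 and 56 CPM in EV and 39.5 and 38 in KO (-0.51 ± 0.0447 SE, limma adjusted p = 0.000126). SOX2-OT, the long non-coding gene that encloses SOX2 in the annotation, was at 7.89 and 7.75 CPM in EV and 4.2 and 4.09 in KO (-0.91, adjusted p = 0.000118). It was chosen after its values were seen, and without strand its reads cannot be separated from those of SOX2. ERBB3, a neuregulin receptor, fell from 182 and 186 to 130 and 123 CPM (-0.54, adjusted p = 0.000103), and MAF, a large MAF transcription factor, from 19.9 and 19.7 to 13.7 and 13.4 (-0.55, adjusted p = 0.000283). S100B, a calcium-binding glial protein (-0.46, adjusted p = 0.00112), PTPRZ1, a receptor phosphatase of glial cells (-0.40, adjusted p = 0.00112), and HEY1, a Notch target (-0.46, adjusted p = 0.00199), fell too. In these 7 genes both KO libraries lay below both EV libraries, as they did in every called fall.

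The other side of the same list was small. EGFR rose from 110 and 113 to 139 and 133 CPM (0.29, limma adjusted p = 0.000973) and was its 1 called rise. NES (0.12, 95% interval 0.04 to 0.19, adjusted p = 0.0621) was not called but was without either KO library of the deprived medium (0.0381 and 0.0374). OLIG2 (0.06, -0.10 to 0.21) and NFIB (-0.02, -0.10 to 0.06) were not called. In the whole list 17 genes were not called, and 6 had a positive value. The median was -0.23, against -0.0033 over all genes tested. Without EV library a 6 were called lower, without EV library b 6, and 3 were called higher without either KO library of the deprived medium.

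**Figure D4:**
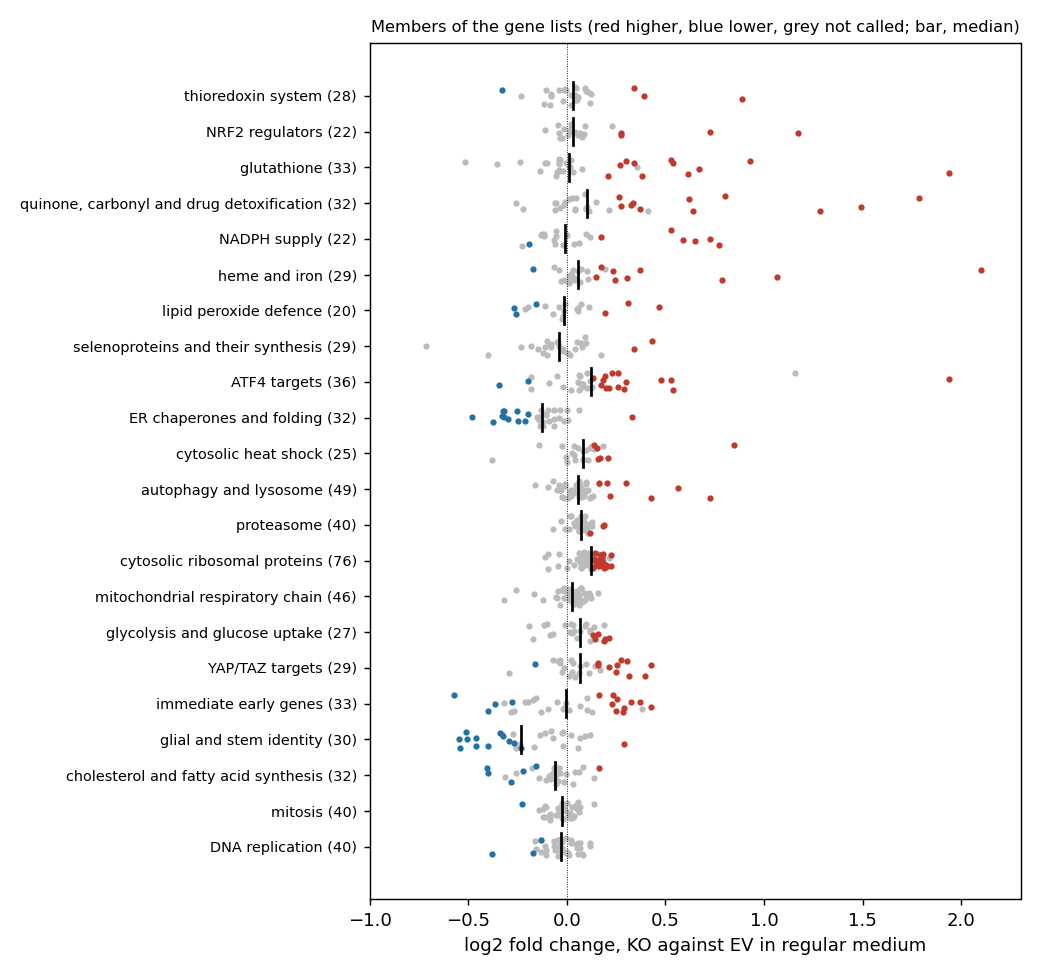
Log2 fold change of KO against EV in regular medium (horizontal axis) for the tested members of 22 gene lists (rows, number of members tested in brackets), 1 point per gene with a vertical bar at the list's median. Red points were called higher, blue lower, grey not called; 1 gene that was not called lies outside the axis. The glial and stem list has its median at -0.23 and the endoplasmic reticulum chaperones at -0.13, while the redox lists have medians near 0 with a few members far to the right.

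The 12 largest falls above 10 CPM also held genes not yet described, among them PLXNB3 of the identity list and SDF2L1 of the endoplasmic reticulum list. STARD4-AS1, a long non-coding RNA, fell from 12.6 and 12.5 to 8.37 and 8.2 CPM (-0.60, limma adjusted p = 0.000205), and STARD4, a sterol transfer protein, from 26.4 and 26.7 to 19.4 and 20.9 (-0.40, adjusted p = 0.00074). The annotated spans of STARD4-AS1 and STARD4 overlap at their ends, and without strand, reads in the overlap cannot be assigned to either gene. SLC26A2, a sulfate transporter, fell from 316 and 299 to 216 and 219 CPM (-0.50, adjusted p = 0.000103), and GASK1B, a Golgi protein, from 33.1 and 33.4 to 25 and 22.7 (-0.48, adjusted p = 0.000973). These 4 were called whichever 1 of the 8 libraries was left out. SEMA3B, a secreted semaphorin, was at 78 and 73.3 CPM in EV and 57.5 and 48.7 in KO (-0.51), PLXNB3, a plexin, at 61 and 61.8 against 47.5 and 39.5 (-0.50), TBX2, a T-box repressor, at 41.5 and 40 against 32.1 and 26.4 (-0.48), and EGR3, an early growth response factor, at 34.8 and 32.9 against 26 and 19.9 (-0.57). In each of these 4, KO library b was the lowest. Without EV library a the adjusted p was 0.113 for SEMA3B, 0.109 for PLXNB3, 0.155 for TBX2 and 0.133 for EGR3, and without EV library b 0.0544, 0.109, 0.102 and 0.0782; without KO library b it was 0.0672 for PLXNB3 and 0.0782 for TBX2. FAM222A (-0.58) and SDF2L1, an endoplasmic reticulum protein (-0.48), were called at adjusted p of 0.0436 and 0.0177. When EV library a was left out FAM222A and SDF2L1 were at 0.257 and 0.156, when EV library b was left out at 0.146 and 0.0782 and when KO library b was left out at 0.171 and 0.0723. FAM222A was also at 0.0793 and 0.0799 without the EV libraries of the deprived medium.

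Because the cells carry TAZ(4SA), genes known as targets of YAP and TAZ were read separately. WWTR1, the gene of TAZ, was at 362 and 361 CPM in EV and 329 and 318 in KO (-0.16, limma adjusted p = 0.0236), a value that does not separate construct from endogenous reads. It was not called without EV library a (0.204), EV library b (0.167) or KO library b (0.0759). CCN1, a matricellular protein, rose from 137 and 140 to 186 CPM in both KO libraries (0.42, adjusted p = 0.000118). CCN2 was at 108 and 109 CPM in EV and 127 and 130 in KO (0.25, adjusted p = 0.00336; 0.062 and 0.0511 without EV library a and b). Of 29 tested targets 10 were called higher and 1, WWTR1 itself, lower, against 3.87% and 3.38% of all genes tested. Their median was 0.07. Without EV library a 3 rises were called and without EV library b 2.

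Signal-responsive genes moved in both directions. Of 33 immediate early genes 10 were called higher and 4 lower, against 3.87% and 3.38% of all genes tested. Their median was -0.0044. DUSP5, a phosphatase of ERK, rose from 20.7 and 20.5 to 26.4 and 26.9 CPM (0.37, limma adjusted p = 0.000639), and the called falls were NR4A2, EGR3, PHLDA1 and EGR2. The rises numbered 4 without EV library a, 5 without EV library b and 6 without KO library a, and the falls ranged from 0 without either EV library to 8 without KO library a, with 2 without KO library b and 7 without either KO library of the deprived medium. CXCL8, the neutrophil chemokine, rose from 37.7 and 35.1 to 55.4 and 59.1 CPM (0.65, adjusted p = 0.00074) and led the NF-kB list, in which 5 of 26 were called higher and 0 lower, a median of 0.07. The others were LIF, TNFAIP3, BIRC3 and NFKBIA. That count was 1 without EV library a, 1 without EV library b and 2 without KO library a. TGFA, an EGFR ligand, fell from 414 and 406 to 299 and 305 CPM (-0.44, adjusted p = 0.000118).

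Proliferation genes were read beside all genes tested, of which 3.87% were called higher and 3.38% lower. MCM7, a subunit of the replicative helicase, was at 447 and 451 CPM in EV and 350 and 340 in KO (-0.38 ± 0.033 SE, limma adjusted p = 0.000118). Its complex partner MCM6 was at 206 and 197 CPM in EV and 176 and 181 in KO (-0.17, adjusted p = 0.017), and was not called without EV library a (0.225), EV library b (0.0794) or KO library a (0.0675). Of 40 genes of DNA replication 3 were called lower (with POLE) and 0 higher, median -0.03, with 1 lower without EV library a, EV library b or KO library a. Of 40 mitosis genes 1, HMMR, was called lower and 0 higher, median -0.03; 0 were called lower without either EV library, KO library a or either EV library of the deprived medium, 4 without KO library b, where 1 was called higher, and 3 without either KO library of the deprived medium. In cholesterol and fatty acid synthesis 5 of 32 were called lower (STARD4, SREBF1, IDI1, INSIG1 and SCD) and 1 higher, median -0.06. The falls ranged from 1 without either EV library, 2 without KO library a and 3 without KO library b or either EV library of the deprived medium to 8 without either KO library of the deprived medium; 0 rises were called without EV library a or b, KO library a or either EV library of the deprived medium.

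On the CPM scale the largest gains were carried by abundant transcripts. The called rises summed to a gain of 13778 CPM and over the called falls the sum decreased by 6188 CPM. FTL and FTH1 were among the 8 largest gains, with FN1, fibronectin, THBS1, thrombospondin, ACTG1, MYH9, EEF1A1 and PKM. The last 6 differed by 0.12 to 0.16 on the log2 scale. Leaving out EV library a put the adjusted p at 0.31 for FN1, 0.207 for THBS1, 0.30 for ACTG1, 0.244 for MYH9, 0.243 for EEF1A1 and 0.299 for PKM, and without EV library b 0.253, 0.117, 0.244, 0.198, 0.222 and 0.246, so none was called without either. They were also not called without KO library a (0.156, 0.0676, 0.114, 0.134, 0.117 and 0.172). The largest losses included HSPA5, HSP90B1, CALR, TGFA and MCM7, described above, and COL11A1, a fibrillar collagen, from 721 and 739 to 593 and 610 CPM (-0.28, limma adjusted p = 0.00292; 0.052 without EV library b), and PLAT, tissue plasminogen activator, from 551 and 539 to 454 and 427 (-0.31, adjusted p = 0.00508; 0.073 without EV library a).

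The knockout difference was then compared between media, in contrasts that share no library but share the estimate of the spread. Of the 505 genes called higher in regular medium, 222 were also called higher in glucose-deprived medium, 18 were called lower and 265 were not called. Of the 441 called lower, 202 were also called lower, 27 higher and 212 not called. Across all genes 9.04% were called higher and 10.6% lower in the deprived medium. The difference between media, tested as an interaction, was called for 563 genes (4.31%, or 2.31% above 0 and 2.01% below 0), 162 of them among the 946. SLC7A11 went from 1.94 in regular to 0.50 in deprived medium (interaction -1.44, limma adjusted p = 7.4e-07) and NMRAL2P from 3.43 to 0.88 (-2.55, adjusted p = 8e-06). HMOX1, at 2.10 and 2.07 (interaction -0.03, adjusted p = 0.86), and SRXN1, at 0.89 and 0.81 (-0.07, adjusted p = 0.39), were not called for a difference. EGR3 turned from -0.57 to 0.94 (1.51, adjusted p = 0.00071). The interaction count was 147 without EV library a and 183 without EV library b. Among the libraries of the deprived medium it was 1579 without KO library a, 368 without KO library b, 176 without EV library a and 162 without EV library b.

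**Figure D5:**
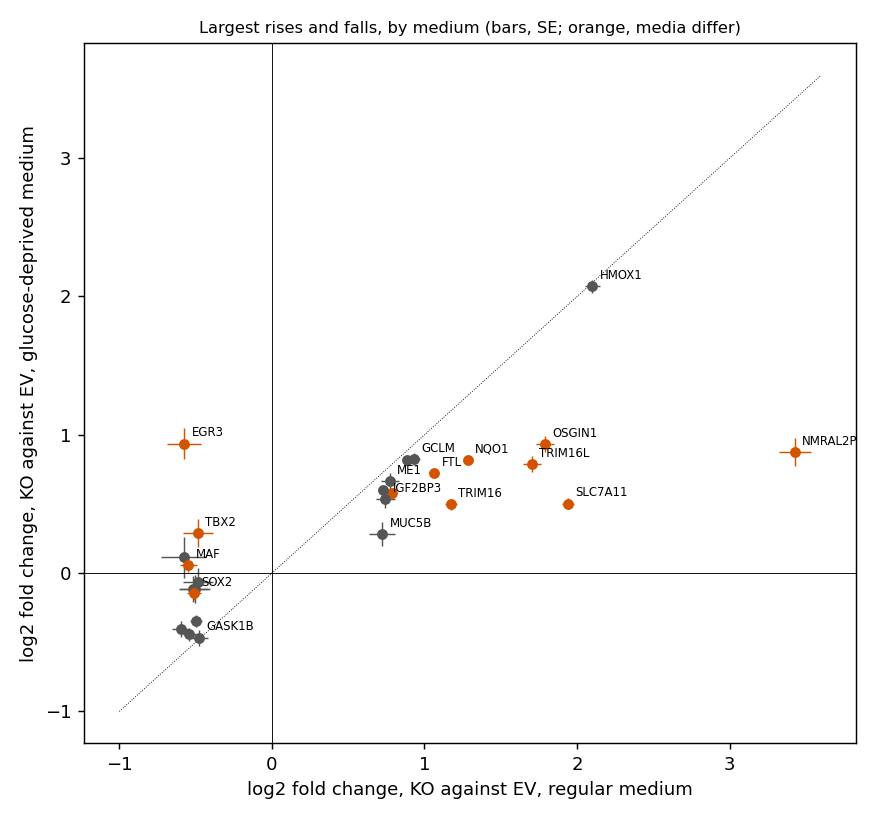
Log2 fold change of KO against EV in glucose-deprived medium (vertical axis) against that in regular medium (horizontal axis) for 15 of the 16 largest rises and the 12 largest falls in regular medium, with SE bars; some crowded points carry no name. Orange points had a called interaction between knockout and medium, and the dotted line marks equal differences. HMOX1 lies on the line, SLC7A11 and NMRAL2P far below it.

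Median log2 fold changes of the 23 chromosomes with tested genes lay between -0.03 on chromosome 12 and 0.02 on chromosome 22. Chromosome 12, which carries TXNRD1, had 19 genes called higher and 50 lower among 695, and chromosome 19 had 32 higher and 3 lower among 914. Over all genes tested 3.87% were called higher and 3.38% lower. Chromosome 13 had 6 higher and 16 lower among 229, and chromosome 6 had the largest share called, at 10.2%. The lowest median over 40 neighbouring tested genes was -0.16, on chromosome 5 from PCDHA2 to PCDHGC3 (chr5:140794852-141512975), where 3 of 40 values were positive. This window was chosen after its values were seen among 12069 overlapping windows. These clustered protocadherins, cell adhesion genes, share exons and similar sequence, so their values are not independent.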

How the data were processed

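Poly(A) RNA-seq libraries (SMART-Seq mRNA HT and Nextera XT, per the labels' protocols; the kit does not mark strand) were read from 1 table of log2 CPM values, deposited by the authors. HISAT2, edgeR and the build GRCh38 are named in the submitters' processing notes; the counting tool is not given in the sources used here. Whole reads were recovered from the value steps (100% whole within 0.05 read). Genes that averaged 0 or more in log2 CPM were fitted in limma 3.58.1 (R 4.3.3) with 4 groups of 2 libraries, a variance trend and Benjamini-Hochberg adjustment over 13057 genes. The call threshold was an adjusted p of 0.05, and all adjusted p-values in the text are from limma. A fold change is the difference of mean log2 values. Named genes are the 16 largest rises and 12 largest falls with at least 10 CPM in the higher group, the 8 largest CPM gains and losses, rises of 1 or more below 10 CPM, TXNRD1 and its neighbours, and members of fixed lists; genes outside these rules were chosen after their values were seen. The members and lists were chosen with earlier results of these data known. The deposited unit is log2, so edgeR and DESeq2 were not run; voom on the recovered reads was added after seeing the data. The code was tested on simulated data. Some genes and sequences that meet these rules are not reported here.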

Additional observations from a re-analysis of the deposited data

Results flagged for a closer look

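Of the 176 genes named, 37 had a knockout difference that was not the same in both media by limma's interaction test, 20 of them lower and 17 higher in glucose-deprived medium. Over all genes tested the share was 4.31%, and many of the named genes were chosen for a large difference in regular medium, which enters this test. Each value below is the knockout difference in deprived medium minus that in regular medium, on the log2 scale. Among NRF2 target genes and their neighbours it was -2.55 for NMRAL2P, -2.06 for SLC7A11-AS1, -1.44 for SLC7A11, -0.92 for TRIM16L, -0.85 for OSGIN1, -0.68 for TRIM16, -0.47 for NQO1, -0.34 for FTL, -0.30 for GSTM4, -0.28 for TKT and -0.21 for FTH1, and it was -0.39 for TXNRD1 itself. In genes of signalling, stress and structure it was -0.68 for KCNE4, -0.68 for BIRC3, -0.57 for LIF, -0.45 for STC2, -0.40 for CCN1, -0.34 for ACTG1, -0.31 for CCN2 and -0.29 for ATF4.

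Values above 0 were found for heat shock genes, at 2.24 for HSPA6 and 0.60 for FKBP4, and for signal-responsive genes, at 1.51 for EGR3, 0.67 for DDIT4, 0.66 for EGR2, 0.45 for ATF3 and 0.35 for PHLDA1. Among transcription factors it was 0.77 for TBX2, and the identity list, with SOX2-OT beside it, gave 0.70 for HEY1, 0.61 for MAF, 0.52 for SOX2-OT and 0.36 for SOX2. The remaining values were 0.65 for SLC30A1, 0.40 for IDI1, 0.37 for INSIG1, 0.36 for MCM6 and 0.29 for IDH1. The interaction count over all genes depended on the libraries, from 147 without EV library a of regular medium to 1579 without KO library a of deprived medium.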

How the results depend on the processing

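The count of 946 called genes (505 higher, 441 lower) was 433 (214 and 219) without the variance trend, of which 391 were among the 946, and 49 (41 and 8) when tested against a 1.2-fold difference. Leaving out 1 library at a time gave 168 to 1414 called genes, 99 to 703 of them higher and 69 to 711 lower; the interaction count of 563 ranged from 147 to 1579 and was 223 without the trend. No called difference of a named gene changed sign. With scaling by the plain sum 40.4% of calls were higher, against 53.4% in the reported fit and 60.2% with median-of-ratios scaling. Other filters, log2(CPM + 1), the 4 regular-medium libraries alone and voom on the recovered reads, which was chosen after seeing the data, gave 847 to 961 calls. The edgeR and DESeq2 alternatives were not run; the recovered reads were fitted with voom alone. No paired analysis was possible because the table's columns carry no replicate numbers. One read was worth 0.00948 to 0.0143 CPM over the 8 libraries, and the 2 libraries of each group limit the precision of the spread.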

Other observations

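Over all genes tested 7.25% were called, against 4 of 25 p53 targets, 2 of 29 interferon response genes and 3 of 41 actin genes. Of the 25 p53 targets PLK3 was called higher (0.37) and RRM2B, PLK2 (-0.14) and FDXR (-0.26) lower, with a median of -0.08; 0 were called lower without EV library a, and 1 without EV library b, KO library a or either EV library of the deprived medium, and PLK3 was not called without any 1 of the 4 libraries of regular medium. Of 29 interferon response genes OAS1 and SAMD9 were called lower and 0 higher, with a median of -0.09. OAS1, which makes the activator of RNase L, was at 4.21 and 2.97 CPM in EV and 2.16 and 1.85 in KO (-0.82), and neither gene was called without EV library a or KO library b. Of 41 actin genes MYH9 and ACTG1 were called higher and MYH10 lower (-0.16), a median of 0.04, and 0 in either direction without EV library a, EV library b or KO library a. Of 6 genes of metallothioneins and zinc, SLC30A1, a zinc exporter, was called lower (-0.31), but not without EV library a or b or either KO library.

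CARS1, a cysteinyl-tRNA synthetase, varied within groups. It was at 7.51 and 3.8 CPM in EV and 17.2 and 8.28 in KO (1.16), and was not called (limma adjusted p = 0.132).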
